A study of Danio rerio with 4 samples.

Results

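The finTRIM genes (ftr) and the class I and class II genes of the major histocompatibility complex (mhc1 and mhc2) of zebrafish were examined in RNA of whole embryos with and without a functional nexn gene. Members were the genes of the count tables whose symbol begins with ftr and a digit, with mhc1 or mhc2, or with gimap, and which held 10 or more reads in at least 1 library. Of 102 genes with such a symbol, 54 reached this limit, out of 32057 genes in the tables and 21185 genes that reached the same limit. These 54 members were 40 ftr, 13 mhc1 and 1 mhc2 gene. No symbol in the tables begins with gimap (0 genes), so that family is not covered here.

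Embryos were nexn+/+ or nexn-/- at 72 hpf, and each of the 2 pools per genotype held RNA of 25 embryos. The nexn-/- line carries a CRISPR/Cas9 deletion in nexn, which encodes an actin-binding protein of the muscle Z-disc. The study's methods state that the nexn+/+ and nexn-/- parents descended from a heterozygous pair and were kept in different tanks and crossed within each genotype. Parents thus differ between genotypes, and an effect of nexn and a difference in parental haplotype cannot be told apart. The labels call the pools biological replicates without saying whether they came from separate crosses, so that p-values measure only the spread between these pools.

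These families are known for variation between individuals. Class I molecules present peptides from within the cell, and in zebrafish whole class I genes can be present on one haplotype and missing from another. The U genes are the classical lineage, whereas the Z and L genes form separate lineages of bony fish. Class II molecules present peptides of engulfed material. FinTRIM proteins are a large fish group of TRIM proteins, many with a variable B30.2 domain, and were first found as genes induced by virus in trout. In whole embryos, fewer cells of a type and less RNA per cell cannot be told apart.

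The libraries held between 19413597 and 21956272 estimated counts. Levels are counts, or CPM (counts scaled to library size with edgeR's TMM factors), and each log2(FC) is nexn-/- over nexn+/+. Calls required an adjusted p below 0.05 together with a log2(FC) beyond 0.5, over 20312 tested genes, and all adjusted p-values are Benjamini-Hochberg values of edgeR's quasi-likelihood test unless another tool is named. The targeted gene nexn measured 96.3 and 75.4 CPM in nexn+/+ pools and 40.2 and 50.96 CPM in nexn-/- pools, a fall (log2(FC) −0.91, adjusted p = 0.00737).

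Most members were expressed at low levels. The mean over the libraries was under 1 CPM for 32 of the 54 members and at 10 CPM or more for 5 of them, so that most fold changes rest on few reads. The filter of edgeR on low counts removed 14 members, and 40 were tested, namely 28 ftr and 12 mhc1 genes. Just inside the limit of 10 reads lay mhc1lda, with 3 and 3 counts in nexn+/+ against 10 and 5 in nexn-/- pools. Just outside it lay ftr30, with 1.85 and 8.69 counts in nexn+/+ against 0 and 0 in nexn-/- pools. Of the 48 genes below the limit, 14 had 0 counts in all 4 libraries.

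Of the 40 tested members, nexn-/- embryos had 9 called higher and 4 called lower, or 22.5% and 10%. Over all tested genes 16.7% were called higher and 13.9% lower, 30.6% together. Among the 5921 tested genes whose level lay within the interquartile range of the tested members, 19.1% were called higher and 4.54% lower. The member shares, however, also cover members outside that range, so the 2 sets are not matched. Of the 4 members called lower, ftr36 and mhc1zda (means 10.3 and 8.61 CPM) lay above that range of levels. The mean of mhc1zfa (0.529 CPM) lay below it. No excess of calls in either direction is therefore read from these shares. The median log2(FC) was 0.51 for the tested members, 0.33 for the genes at the same level and 0.02 for all tested genes. Among all 54 members, 30 had both nexn-/- libraries above both nexn+/+ libraries and 8 had both below, and 16 overlapped. Over genes with 10 or more reads, 36.4% lay above and 33.7% below in this way. For called members, a lack of overlap largely follows from the call, so it adds no support where it is given below. Of the 40 tested members, 57.5% lay above and 17.5% below, against 46.3% and 18.3% of the tested genes at the same level. None of the 13 calls was kept when a nexn-/- library was left out (0 members called in either fit), and those fits called 4 genes in the whole table.

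**Figure D1:**
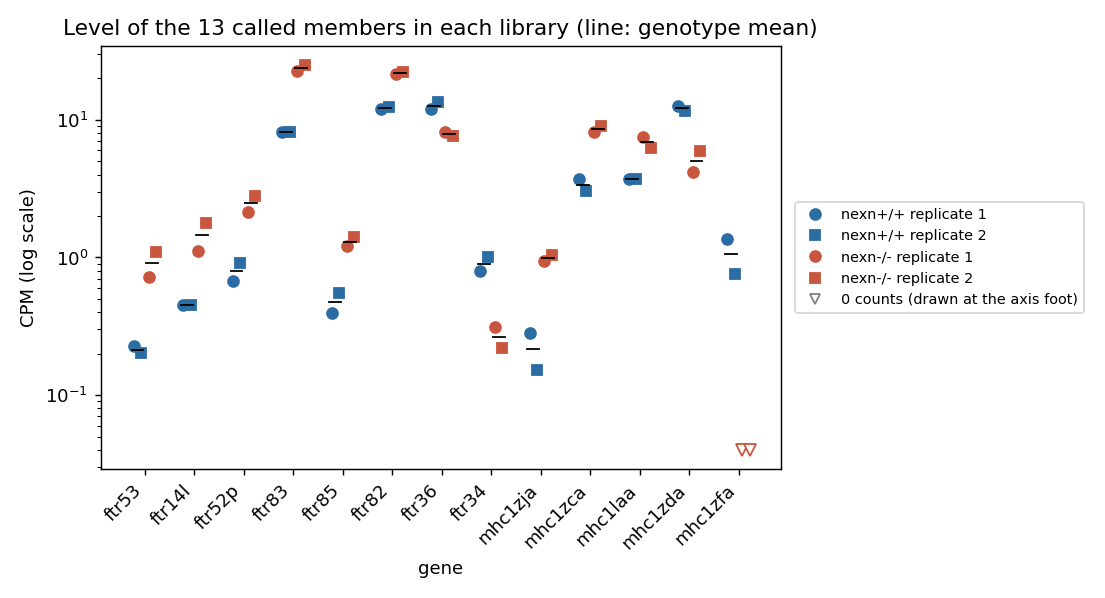
CPM of the 13 called members in each library on a log axis, with circles for replicate 1 and squares for replicate 2, nexn+/+ in blue and nexn-/- in red, and lines for genotype means. The libraries of the genotypes do not overlap for any of these 13 genes, which largely follows from their being called. The gene mhc1zfa has 0 counts in both nexn-/- libraries (open triangles).

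Within the finTRIM family, 6 of 28 tested genes were called higher, 2 were called lower and 20 were not called, with a median log2(FC) of 0.50. These were 21.4% and 7.14%, against 16.7% and 13.9% over all tested genes. The rises with the most reads were those of ftr82 and ftr83, which lie next to each other with no other protein-coding gene between them in the gene order of the GRCz12tu assembly. In zebrafish, ftr83 is known for expression in the gill region and for raising local antiviral interferon. For ftr83 (ENSDARG00000025403), 143 and 161 reads were counted in nexn+/+ pools against 507 and 571 in nexn-/- pools. The mean CPM was 8.11 ± 0.00841 in nexn+/+ pools and 23.9 ± 1.58 in nexn-/- pools (SD, n = 2). The genotypes did not overlap (log2(FC) 1.56, SE 0.136, adjusted p = 0.0012). An SD of 2 pools, here and below, is itself uncertain. In deposited TPM, ftr83 was at 4.35 and 6.29 in nexn+/+ against 17.92 and 18.85 in nexn-/- pools. For ftr82 (ENSDARG00000055647), 211 and 245 reads stood against 480 and 506, again without overlap (log2(FC) 0.85, SE 0.126, adjusted p = 0.00362).

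The other 4 finTRIM genes that rose were weakly expressed. RefSeq annotates ftr52p (ENSDARG00000011652) as a transcribed pseudogene, and its level was 0.68 and 0.907 CPM in nexn+/+ against 2.15 and 2.8 CPM in nexn-/- pools (log2(FC) 1.63, adjusted p = 0.0157). The gene ftr53 (ENSDARG00000041220), also annotated as a transcribed pseudogene, had 4 and 4 counts against 16 and 25 (log2(FC) 2.06, adjusted p = 0.0303). Counts of ftr14l (ENSDARG00000078254) were 8 and 9 against 25 and 41 (log2(FC) 1.67, adjusted p = 0.0327). The genotypes did not overlap for any of these genes. Counts of ftr85 (ENSDARG00000034707) were 7 and 11 against 27 and 32 (log2(FC) 1.44, adjusted p = 0.0439). With DESeq2, ftr52p was called as well (adjusted p = 0.0269), whereas ftr53, ftr14l and ftr85 were not (adjusted p = 0.117, 0.0944 and 0.163). The call of ftr85 was kept in 8 of 17 alternatives, and was also lost with limma-voom (adjusted p = 0.052), both looser filters, the effective length offset and without nexn+/+ replicate 1 (0.0749).

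The most abundant finTRIM genes did not all move in 1 direction. Together, ftr36, ftr67, ftr82 and ftr83 held between 59.5% and 61.4% of the counts of all ftr members in each library. The gene ftr67 (ENSDARG00000098820) measured 27.3 and 29.6 CPM in nexn+/+ against 22.8 and 18.5 CPM in nexn-/- pools. Its log2(FC) of −0.46 (adjusted p = 0.0413) was smaller than the fold change limit, so it was not called. Counts of ftr36 (ENSDARG00000111722) were 211.99 and 265.53 against 180.6 and 174.67, a fall without overlap (log2(FC) −0.69, SE 0.163, adjusted p = 0.0181). Its call was lost with library size alone (adjusted p = 0.0873) and with scaling to rpl13 (adjusted p = 0.176). Counts of ftr34 (ENSDARG00000079614) were 13.97 and 20.38 against 6.89 and 5.24, also a fall (log2(FC) −1.74, adjusted p = 0.0407), which kept its call in 6 of 16 alternatives. It was lost with DESeq2 (adjusted p = 0.16), with library size alone, upper quartile or rpl13 scaling (0.0673, 0.0509 and 0.0874), with both looser filters, with the replicate block and without nexn+/+ replicate 2 (0.123). Summed over all 40 ftr members, the level was 97.7 and 103 CPM in nexn+/+ against 122 and 123 CPM in nexn-/- pools. The tested genes at the level of the members also had a higher sum, at 11552 and 11629 CPM against 14787 and 14555 CPM. However, ftr36, ftr67, ftr82 and ftr83 (means 10.3, 24.5, 16.99 and 15.98 CPM) lay above the range of levels that defines those genes. The sum of those genes is therefore not a match for the family sum, and nothing particular to the family is read from the family sum.

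**Figure D2:**
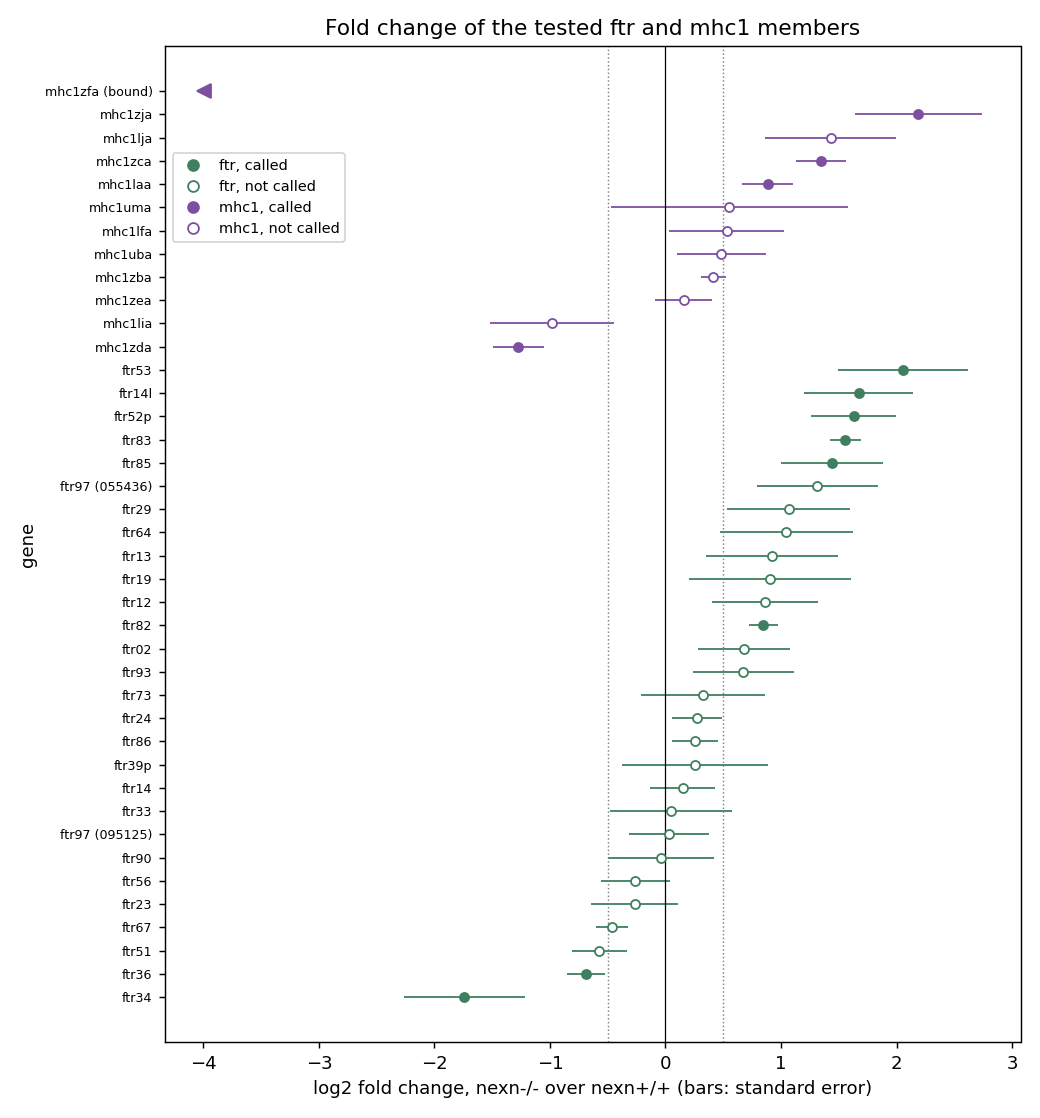
The log2 fold change of each tested member (x axis, nexn-/- over nexn+/+, bars are standard errors of edgeR's fit), sorted within the ftr and mhc1 families, with filled points for called genes and dotted lines at the limits of 0.5. Called genes lie on both sides of 0 in both families, and mhc1zfa is drawn at a 15.9-fold lower level, its value against a floor of 3 counts.

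Class I genes were called in both directions, as were genes over the whole table. Of 12 tested mhc1 genes, 3 were called higher, 2 were called lower and 7 were not called, with a median log2(FC) of 0.51. The shares of 25% and 16.7% stood against 16.7% and 13.9% over all tested genes. Summed over the 13 members, the level was 62.2 and 59.9 CPM in nexn+/+ against 74.4 and 74.0 CPM in nexn-/- pools. No genes of a matching level were summed beside it. The gene mhc1zba (ENSDARG00000036588) held between 49.9% and 57.7% of the counts of all mhc1 members in each library. Its mean of 36.7 CPM lay above the interquartile range of the tested members. It had 583.84 and 593 counts in nexn+/+ against 957 and 933 in nexn-/- pools, and its log2(FC) of 0.41 (SE 0.108, adjusted p = 0.0263) was smaller than the fold change limit. It was called with library size alone (log2(FC) 0.56), the upper quartile (0.52) and scaling to rpl13 (0.65).

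In the Z lineage, mhc1zea, mhc1zda, mhc1zca and mhc1zba follow each other in the GRCz12tu gene order with no other protein-coding gene between them. Neighbours among these 4 changed in opposite directions. The level of mhc1zda (ENSDARG00000086877) was 12.2 ± 0.706 CPM in nexn+/+ and 5.04 ± 1.22 CPM in nexn-/- pools (SD, n = 2). Its counts were 224 and 231.88 against 93.46 and 135, a fall without overlap (log2(FC) −1.27, SE 0.219, adjusted p = 0.0059). The level of mhc1zca (ENSDARG00000069471) was 3.38 ± 0.506 CPM in nexn+/+ and 8.59 ± 0.535 CPM in nexn-/- pools (SD, n = 2). Its counts were 66 and 60.12 against 182.54 and 205, a rise without overlap (log2(FC) 1.35, SE 0.218, adjusted p = 0.00484). The libraries of mhc1zea (ENSDARG00000001470) overlapped, at 4.53 and 6.7 CPM against 6.06 and 6.52 CPM (log2(FC) 0.16, adjusted p = 0.655).

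The sum of mhc1zda and mhc1zca was also examined, a comparison that was chosen after its values had been seen and was not tested. Their summed counts were 290 and 292 in nexn+/+ against 276 and 340 in nexn-/- pools. As CPM the sums were 16.4 and 14.7 against 12.4 and 14.9, so the genotypes overlapped (log2 ratio −0.19). As deposited TPM they were 14.14 and 14.83 against 9.39 and 11.74, so on the scale that takes length into account the sum was lower in nexn-/- pools, without overlap (log2 ratio −0.46). The share of mhc1zda in this sum was 77.2% (95% interval 71.98% to 81.9%, exact Clopper-Pearson) and 79.5% (74.4% to 83.9%) in nexn+/+ libraries. In nexn-/- libraries it was 33.7% (28.1% to 39.6%) and 39.7% (34.5% to 45.1%). These intervals cover counting error only.

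Reads of these neighbours may in part have been divided between them by the counting. The counts of mhc1zda and mhc1zca were not whole in nexn+/+ replicate 2 and in nexn-/- replicate 1, and in both libraries they added up to a whole number (292 and 276, within 0.01). In the same way, the counts of mhc1zba and mhc1zea added up to 664 in nexn+/+ replicate 1. Members that are not neighbours, such as ftr13 and ftr39p in nexn+/+ replicate 2, gave whole sums too. A whole sum thus does not show which genes shared reads. Single values of these genes are uncertain, and whether and how many reads were divided between them is not known from the tables. With an offset for effective length, the log2(FC) was −1.41 for mhc1zda and 1.34 for mhc1zca. In the TPM values as deposited, which are scaled to length, mhc1zda was at 12.3 and 13.06 in nexn+/+ against 4.36 and 6.42 in nexn-/- pools, and mhc1zca at 1.84 and 1.77 against 5.03 and 5.32. The TPM of mhc1zda thus lay above that of mhc1zca in both nexn+/+ libraries, whereas in nexn-/- libraries it was lower in replicate 1 and higher in replicate 2.

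**Figure D3:**
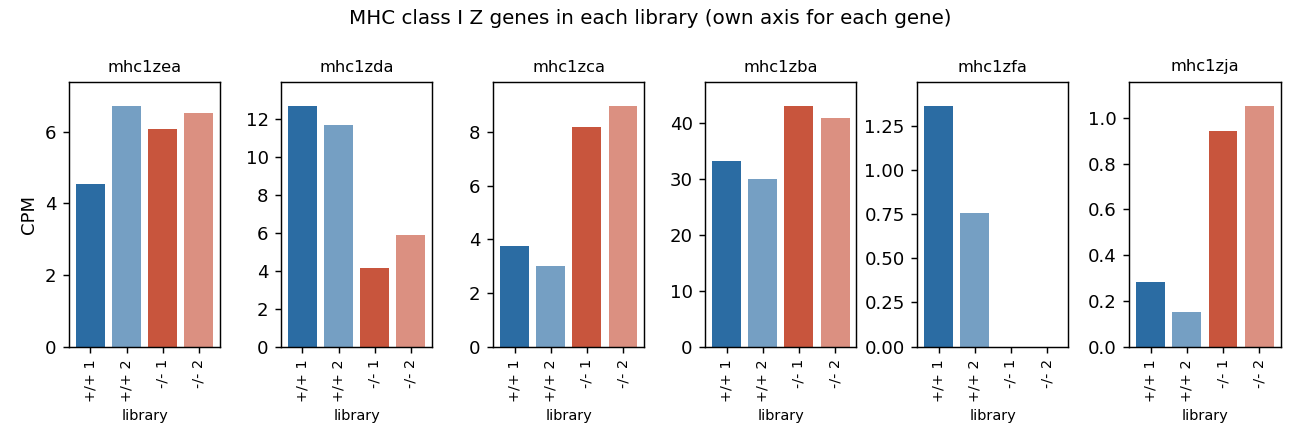
CPM of the 6 class I Z members in each library, nexn+/+ in blue and nexn-/- in red with replicate 2 in the lighter shade, and a separate y axis from 0 for each gene. The bars of mhc1zda are lower and those of mhc1zca and mhc1zja higher in both nexn-/- libraries, those of mhc1zea overlap, and mhc1zfa has bars in nexn+/+ embryos alone.

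Another Z gene, mhc1zfa (ENSDARG00000088022), was read in nexn+/+ embryos and not in nexn-/- embryos. It had 24 and 15 counts in nexn+/+ against 0 and 0 in nexn-/- pools. Set against a floor of 3 counts over both nexn-/- libraries, its mean level was 15.9-fold lower in nexn-/- embryos. This value leaves out the counting error of the nexn+/+ reads. The fit of edgeR gave a log2(FC) of −7.45 (adjusted p = 0.00674), whose size is uncertain with 0 counts in 1 genotype. Silence, a missing gene and a sequence unlike the reference cannot be told apart from a count of 0. With 3 or fewer counts in both libraries of one genotype and 10 or more in both of the other, mhc1zfa was the 1 member read only in nexn+/+ embryos. The same held for 21 of 21185 genes, or 0.0991%. The opposite pattern held for 1 member, ftr01 (ENSDARG00000003909), with 3 and 2 counts against 14 and 10, and for 0.689% of those genes.

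Below the limit of 10 reads, ftr35 and ftr30 also had reads in both nexn+/+ libraries (1.26 and 4.64 counts for ftr35) and 0 in both nexn-/- libraries. At these counts an absence is not distinguishable from a low level. The Z gene mhc1zaa, also below the limit, had 4 and 7 counts in nexn+/+ against 2 and 0 in nexn-/- pools. The remaining Z member, mhc1zja (ENSDARG00000074765), rose, with 5 and 3 counts against 21 and 24 (log2(FC) 2.19, SE 0.55, adjusted p = 0.0225). Its adjusted p was 0.0819 with DESeq2 and 0.0525 without nexn+/+ replicate 2.

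Of the L lineage, mhc1laa (ENSDARG00000016056) was the most abundant member and the 1 that was called. Its counts were 66 and 74 in nexn+/+ against 168 and 143 in nexn-/- pools, or 3.73 ± 0.00708 against 6.9 ± 0.907 CPM (SD, n = 2). Both nexn-/- pools lay above both nexn+/+ pools (log2(FC) 0.88, SE 0.22, adjusted p = 0.0217). Of the 43 members placed in the GRCz12tu gene order by a unique symbol, mhc1laa was the 1 on the chromosome of nexn, with 731 protein-coding genes between them. The other L genes had few reads. Counts of mhc1lfa (10 and 10 against 13 and 22), mhc1lja (4 and 7 against 22 and 14) and mhc1lia (15 and 18 against 6 and 14) did not give a call.

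In the classical U lineage, mhc1uba (ENSDARG00000075963) had 17 and 29 counts in nexn+/+ against 43 and 34 in nexn-/- pools, which was not past the threshold (log2(FC) 0.48, adjusted p = 0.368). The gene mhc1uma (ENSDARG00000039164) differed between pools of the same genotype, with 0 and 12 counts in nexn+/+ against 8 and 13 in nexn-/- pools. The class II gene mhc2dab (ENSDARG00000079105) had 4 and 2 counts against 8 and 11, too few for a test. The other 4 class II genes had at most 8 counts in any library.

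Pools of 1 genotype often differed at low counts. The log2 CPM of the nexn+/+ replicates, taken with a prior count of 2, differed by more than 1 for 11 of the 54 members. That of the nexn-/- replicates did so for 3. In 9 of the 11, nexn+/+ replicate 2 was the higher one. The prior count narrows differences at low counts, where this limit stands for more than 2-fold in CPM. For example, mhc1lia did not pass it at 0.269 and 0.612 CPM in nexn-/- pools. Of the 40 tested members, 12.5% passed this limit in nexn+/+ and 0% in nexn-/- embryos. The shares were 17.01% and 3.12% over tested genes of the same level, and 8.80% and 1.29% over all tested genes. The tested members include genes above and below that range of levels, so these shares are not matched and no difference is read from them. Besides mhc1uma, the largest such differences were those of ftr32 (ENSDARG00000110978, 0 and 10.07 counts in nexn+/+) and ftr58 (3 and 21 counts in nexn+/+). Among members with a mean of at least 1 CPM, 1 of the 2 genes named ftr97 (ENSDARG00000055436) had 26.76 and 9 counts against 50 and 60, and ftr93 had 44 and 20 counts against 60 and 65. Neither was called (adjusted p = 0.0949 and 0.272), but without nexn+/+ replicate 1 both were (log2(FC) 2.41 and 1.45). Over the tested members, the median difference between replicates was 0.305 in nexn+/+ and 0.284 in nexn-/- embryos. It was 0.451 and 0.264 over tested genes of the same level, and 0.243 and 0.144 over all tested genes.

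**Figure D4:**
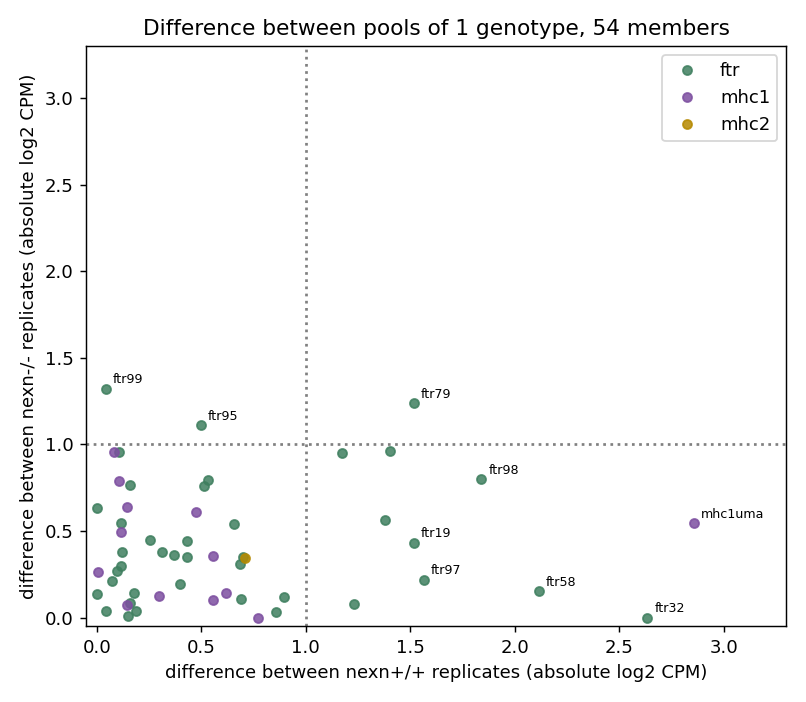
Absolute difference of log2 CPM (prior count of 2) between the nexn+/+ replicates (x axis) and between the nexn-/- replicates (y axis) for all 54 members, with dotted lines at a difference of 1. Differences beyond this line are found for 11 members in nexn+/+ and 3 in nexn-/- embryos, and mhc1uma, ftr32 and ftr58 lie farthest to the right.

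Counts that were not whole were frequent among the members. A count more than 0.01 from a whole number was found in at least 1 library for 21 of 54 members (38.9%), against 8.02% of the genes with 10 or more reads. Of the 13 called members, 4 were among them, namely ftr34, ftr36, mhc1zca and mhc1zda. The counts of ftr12 and ftr13 added up to whole numbers in both libraries in which they were not whole (15 in nexn+/+ replicate 2 and 42 in nexn-/- replicate 2). Such matches were not unique, since ftr13 with ftr39p (29 in nexn+/+ replicate 2) and ftr12 with ftr34 (35 in nexn-/- replicate 2) also gave whole sums. The sum of the pair was 26 and 15 counts in nexn+/+ against 50 and 42 in nexn-/- pools, and neither gene was called. In addition, 7 members carried a symbol that another gene of the tables also carries, such as ftr90, ftr36 and ftr32. Runs of members in the gene order were allowed up to 10 other genes between 1 member and the next. The longest finTRIM run, from ftr39p to ftr29, held 6 placed members with up to 3 other genes between them. All 6 had counts that were not whole. In this run ftr34 was called lower, while ftr29 had 5.34 and 5.5 counts against 15.01 and 12.74 (log2(FC) 1.07, adjusted p = 0.164).

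Genes that act together with class I molecules were taken as a list. Of 19 tested genes of class I antigen processing, 2 were called higher and 0 lower by edgeR, with a median log2(FC) of 0.07. These were 10.5% and 0%, against 16.7% and 13.9% over all tested genes. At an unadjusted p under 0.05 the edgeR test had 3 higher and 0 lower, and DESeq2 and limma-voom also called 0 lower. Those that rose were calr3b, a calreticulin chaperone (41.6 and 58.9 CPM against 85.02 and 82.7), and psme1, a subunit of the proteasome activator (3.12 and 2.17 CPM against 4.71 and 5.82). The light chain gene b2m was at 1.87 and 4.28 CPM against 1.7 and 1.62, with both nexn-/- libraries below both nexn+/+ libraries (log2(FC) −0.90, adjusted p = 0.152). Its relative b2ml was at 74.2 and 61.5 CPM against 92.7 and 72.3 (adjusted p = 0.204), and the peptide transporter gene tap2t at 2.83 and 2.32 CPM against 4.76 and 3.72 (adjusted p = 0.0828). The immunoproteasome genes psmb8a and psmb9a had at most 7 counts in any library and were not tested.

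Of 9 tested genes of class II presentation, 3 were called higher and 1 lower, with a median log2(FC) of −0.07. These were 33.3% and 11.1%, against 16.7% and 13.9% over all tested genes. The cathepsin S genes ctss2.1 (log2(FC) 2.08, adjusted p = 0.00854) and ctss2.2 (1.41, adjusted p = 0.0181) rose, as did the thiol reductase gene ifi30 (0.90, adjusted p = 0.00703). The regulator gene rfxap fell (−0.68, adjusted p = 0.00447). Of 13 tested interferon response genes, edgeR called 0 higher and 1 (7.69%) lower, against 16.7% and 13.9% over all tested genes. Their median log2(FC) was 0.25, with 8 above 0 and 5 below. Of all 30 genes of this list in the tables, 17 held 10 or more reads in a library. Of the 30, 14 (46.7%) had both nexn-/- libraries above both nexn+/+ libraries and 3 (10%) had both below. Over genes with 10 or more reads these shares were 36.4% and 33.7%, and over tested genes at the level of the tested members 46.3% and 18.3%. The 30 genes include some with fewer than 10 reads in every library. These sets are therefore not matched, and no difference is read from the shares. At an unadjusted p under 0.05 the edgeR test had 0 higher and 3 lower, and DESeq2 and limma-voom called 0 higher. The gene called lower was that of the transcription factor irf1b, at 2.15 and 2.12 CPM against 1.12 and 0.875 (adjusted p = 0.0488), and DESeq2 called 0 lower. In other multi-copy immune families (such as btr, nlrp and nlrc symbols) 5 of 21 tested genes, or 23.8%, were called higher and 0 lower. The shares over all tested genes were 16.7% and 13.9%. At an unadjusted p under 0.05 the edgeR test had 6 higher and 0 lower in these families, and DESeq2 and limma-voom called 0 lower. The rises included btr01 (log2(FC) 1.80) and btr12 (1.57), which are TRIM genes of another fish group.

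Markers of other cell types were counted beside the 16.7% of all tested genes called higher and 13.9% called lower. Of 10 tested macrophage markers, 4 were called higher (apoeb, csf1ra, lcp1 and mpeg1.2) and 0 lower. Not called were mpeg1.1, mfap4, marco, spi1b, havcr1 and ptpn6. The summed level of the list was 238 to 265 CPM in nexn+/+ against 370 to 398 CPM in nexn-/- pools. Of this sum, apoeb alone held 208.6 and 238.8 against 318.6 and 342.9 CPM. These genes are not all specific to macrophages, so the sum is not read as a macrophage level. The list taken for neutrophils is not specific to them. Of its 7 tested genes, 4 were called higher (cpa5, lyz, mpx and npsn) and 0 lower (sum 29.6 to 65.7 against 55.2 to 62.6 CPM). The other 3, mmp9 and 2 genes named mmp13a, had log2(FC) values of −1.93, −3.45 and −0.22 without a call, and nexn+/+ replicate 2 stood apart in them, with mmp9 at 3.23 and 33.3 CPM in the nexn+/+ replicates against 4.76 and 4.9. Of 5 epithelial markers, 3 were called higher and 0 lower, namely cdh1, epcam and fabp2 (log2(FC) 1.12, 2.22 and 2.63). The sum of this list, 13602 to 19129 against 23044 to 23774 CPM, was almost wholly krt4 and krt5, which were not called (adjusted p = 0.129 and 0.138). Of 6 endothelial markers, 4 were called higher and 0 lower (sum 63.1 to 64.9 against 116 to 123 CPM). Of 9 tested lymphocyte and thymus markers, coro1a was called higher and tox lower (11.1% in each direction). The sum of 224 to 240 against 113 to 121 CPM was mostly tox. Both coro1a and tox are also expressed outside lymphocytes. The T cell marker cd4-1 was at 0 in all libraries, cd8a had 2 counts in 1 library and 0 in the others, and rag1 was at 2.55 and 3.83 against 3.41 and 3.19 CPM. The part of these cell types in the changes of the members was not tested.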

How the data were processed

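RNA of pooled zebrafish embryos was sequenced in 4 libraries, 2 per genotype. Genotype and replicate number came from the sample labels, and age (72 hpf) and pool size (25 embryos) from the study's methods. For every gene, the authors deposited estimated counts without normalization, and also TPM and FPKM values scaled to library total and gene length. The submitters' processing notes name GRCz11, STAR and RSEM without versions, and the annotation release is not given in the sources used here. The same library name heads all 4 tables, so libraries were assigned by the deposition record.

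After rounding, counts of all 32057 genes entered edgeR 4.0.16 in R 4.3.3 (filterByExpr, TMM, quasi-likelihood test on genotype, Benjamini-Hochberg adjustment). Standard errors (SE) are the absolute log2(FC) over the square root of F. Alternatives were DESeq2 1.42.0, limma-voom (limma 3.58.1), other scalings, filters and limits, a replicate block, effective length offsets (from counts and FPKM), and leaving out each library. Members, gene lists and the naming rule were chosen with earlier results of these data known. The rule took, per family, the largest called rises and falls with a mean of 1 CPM or more, the most abundant genes, genes read in 1 genotype, the largest replicate differences, and genes near the limit of 10 reads. Other members, including called ones under 1 CPM, were named after their values were seen. Gene order came from RefSeq for GRCz12tu, where 43 members had a unique symbol match. No sequences were used here.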

Additional observations from a re-analysis of the deposited data

How the results depend on the processing

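None of the 13 called members changed direction under any alternative. Of these, 7 stayed past both limits under all 14 alternatives that kept both nexn-/- libraries and a fold change limit of 0.5 or none and that tested the gene: ftr52p, ftr82, ftr83, mhc1laa, mhc1zca, mhc1zda and mhc1zfa, the last of which was not tested with a filter of 1 CPM in at least 2 libraries. Members called higher and lower were 9 and 4, and 5 and 3 with DESeq2. With each library left out they ranged from 0 to 12 and from 0 to 6 (12 and 6 without nexn+/+ replicate 1, 9 and 3 without nexn+/+ replicate 2, and 0 and 0 without either nexn-/- library). For ftr members the ranges were 0 to 9 higher (6 in the full fit) and 0 to 4 lower (2), with medians from 0.35 to 0.54. For mhc1 members they were 0 to 3 higher and 0 to 2 lower, with medians from 0.33 to 0.64. The member counts of 0 came from the fits without a nexn-/- library, which leave 1 library to stand for its genotype, assumed to vary like the others, and which called 4 genes higher and 0 lower in the whole table. For the lists these ranges were 0 to 4 and 0 to 2 (class I processing), 0 to 3 and 0 to 1 (class II), 0 to 3 and 0 to 1 (interferon response), and 0 to 9 and 0 to 2 (other multi-copy families).

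Scaling by library size alone, by the upper quartile and to rpl13 moved the all-gene median of log2(FC) by 0.147, 0.103 and 0.234. Library size alone gave 2 members and 0 ftr members called lower, an ftr median of 0.65 and an mhc1 median of 0.64. The upper quartile gave 1 ftr member lower and an mhc1 median of 0.61. Scaling to rpl13 gave 2 members and 0 ftr members lower, medians of 0.74 and 0.73, 4 class I processing genes higher and 0 class II genes lower. Over all genes, 54.5% of calls were higher, against 70.15%, 64.9% and 77.6% with these scalings.

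DESeq2 gave 3 ftr members higher and 1 lower, an ftr median of 0.29, and 1 class I processing gene higher. Without a filter on low counts the ftr median was 0.30, with 1 ftr member lower, and with a filter of 10 counts in at least 1 library it was again 0.30 with 1 lower. In both, more ftr members entered the median. With 1 CPM in at least 2 libraries, which tests fewer genes, 2 members, 1 ftr member and 1 mhc1 member were lower and the ftr median was 0.27. The effective length offset left 1 class I processing gene higher. The 1 interferon response gene called lower was lost (0) with DESeq2, library size alone, the upper quartile, rpl13, no filter, the filter of 10 counts, the replicate block and the length offset. A limit of 1 on log2(FC) left 1 ftr member lower, 0 class I processing genes higher and 0 class II genes lower. The summed ftr level had a log2 ratio of 0.29 from CPM and 0.50 from TPM, and 0 members were read only in nexn-/- embryos when 0 counts were set against 5 or more. Why these values differ was not tested.

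Replicate numbers were used as a block in 1 alternative, although the labels do not say that a number marks a shared batch. The deviations of same-numbered libraries had a correlation of −0.02. With the replicate block, 3 ftr members were called higher and 1 lower. The calls of ftr14l, ftr34, ftr53 and ftr85 were those lost with the block.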
